A study of Mus musculus with 8 samples.

Results

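The microRNA machinery was followed as 10 genes out of the 26263 genes counted in each library of mouse embryonic stem cells (ESCs) and neural precursor cells (NPCs). The members were taken by symbol and comprised the 4 Argonaute genes *Ago1*, *Ago2*, *Ago3* and *Ago4*, the processing genes *Drosha*, *Dgcr8* and *Dicer1*, and the effector genes *Tnrc6a*, *Tnrc6b* and *Tnrc6c*. All 10 were in the count files and all 10 passed the filter on low counts. The study compared undifferentiated ESCs with NPCs at day 12 of *in vitro* corticogenesis in reciprocal hybrids of the strains C57BL/6 and JF1. B/J cells (line BJE2) had a C57BL/6 mother and a JF1 father, J/B cells (line JBE6) the reverse, and each of the 4 groups held 2 libraries. Both lines were male and derived from blastocysts, with no engineered allele, and each cross was a single line, so cross and line cannot be told apart. ESCs were kept in a serum-free medium with LIF, BMP4 and a GSK3-β inhibitor. NPCs were grown on Matrigel in a default medium with B27 and dorsomorphin homolog 1. Nothing in the labels says whether replicates were separate cultures, so the p-values measure only the spread between these libraries. Poly(A) RNA was sequenced, which reports the messages of the machinery and not mature microRNAs.

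MicroRNAs start as hairpins in longer transcripts. In the nucleus the hairpin is cut out by Drosha together with its RNA-binding partner Dgcr8, and after export Dicer1 trims it to a short duplex. A strand of the duplex is then held by an Argonaute protein, pairs with target messages mainly through its seed, and brings in TNRC6 proteins, which recruit deadenylases and decapping factors. Ago2 is the Argonaute with strong slicing activity, and its gene lies in the imprinted domain of *Peg13* and *Kcnk9* that the study was about. Mouse ESCs that lack Dgcr8 or Dicer1 are known to leave the pluripotent state poorly.

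Between 22537138 and 32706015 reads per library fell on genes. Counts were scaled by TMM, a factor per library that balances the bulk of genes, and are given as TMM-normalized CPM (counts scaled to a common library size). The TMM factors were 0.820 to 0.885 in ESCs and 1.14 to 1.21 in NPCs, so that the scaling bears on every comparison of the stages. Over the 16399 genes tested, the median log2 fold change from ESCs to NPCs was 0.17 with TMM factors, 0.65 on library totals and 0.80 when scaled to *Gapdh*, *Gusb* and *Tbp*. Marker sums and levels in this paragraph are CPM of the library total, not TMM-normalized. The summed level of 10 pluripotency markers was 5597 to 8000 CPM in ESCs and 230 to 544 CPM in NPCs. That of 10 neural precursor markers was 206 to 261 and 589 to 1512 CPM. That of 10 neuron markers was 287 to 382 and 367 to 2052 CPM, where NPC B/J replicate 1 overlapped with the ESC libraries. Sums of markers of other cell types were higher in every NPC library than in any ESC library. They were 52.1 to 171 and 1746 to 4538 CPM for trophoblast, 10.7 to 72.2 and 956 to 2312 CPM for fibroblasts and 12.4 to 19.8 and 81.5 to 167 CPM for endoderm. Since several of these markers had few or no reads in ESCs and passed the filter through the NPC libraries, no count of called markers is given. The trophoblast genes *Tpbpa*, *Pappa2* and *Ctsj* were at 0 counts in all ESC libraries. Single markers could differ from their sum. *Stmn2* of the neuron list was at 145 to 232 CPM in ESCs and 31.3 to 157 CPM in NPCs. *Sox7* of the endoderm list was at 5.28 to 7.65 CPM in ESCs and 1.96 to 9.13 CPM in NPCs. *Dab2* gave 49.8 to 84.2 CPM of the endoderm sum in NPCs. NPC B/J replicate 1 had the lowest neuron sum among NPC libraries (367 CPM, the others up to 2052) and the highest trophoblast sum. The part of these cells in the changes below was not tested, and in bulk RNA a change in cell types and a change of RNA per cell cannot be told apart.

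From ESCs to NPCs, 5 of the 10 members passed the test over both crosses, with *Ago4* up and *Ago2*, *Drosha*, *Dgcr8* and *Dicer1* down (edgeR's quasi-likelihood test, adjusted p below 0.05 over all genes). The 1 member that rose stands beside 37.5% of all genes tested that rose, and the 4 that fell beside 31.9% that fell. The 5 calls in either direction stand beside 69.4% of all genes. The median log2 fold change was -0.26 over the members and 0.17 over all genes. On the TMM scale the 4 ESC and the 4 NPC libraries did not overlap for those same 5 members, which was the case for 66.5% of all genes. On library totals they overlapped for *Ago2*, *Drosha*, *Dgcr8* and *Dicer1*. Among the members only *Ago4*, *Tnrc6a* and *Tnrc6b* did not overlap there, beside 67.1% of all genes. Scaling decided how these changes read. On library totals 3 members rose (*Ago4*, *Tnrc6a* and *Tnrc6b*, beside 48.9% of all genes) and 1 fell (*Drosha*, beside 20.9%), and scaled to the housekeeping genes 3 rose (beside 51.6%) and 0 fell (beside 17.2%, with 0 members lower at an unadjusted p below 0.05). A scaling shifts the change of every gene by nearly the same amount, so a change set against the median gene hardly depends on it. For each member that value differed between the 3 scalings by at most 0.03 on the log2 scale. This follows from the arithmetic and says nothing about how robust a change is. Changes are also given relative to the median gene.

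**Figure D1:**
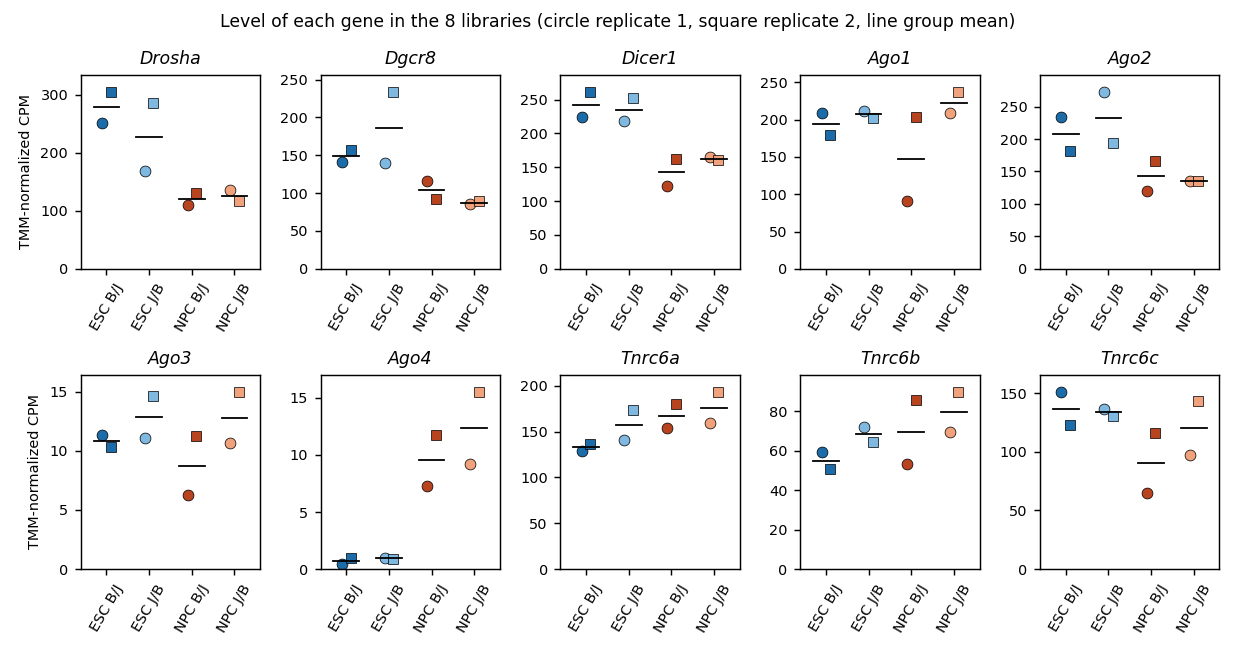
Level of each member in TMM-normalized CPM (vertical axis, from 0) in the 4 groups (horizontal axis), with a circle for replicate 1, a square for replicate 2 and a line at the group mean. *Drosha*, *Dgcr8*, *Dicer1* and *Ago2* lie lower in all NPC libraries than in any ESC library, *Ago4* higher, and NPC B/J replicate 1 is the lowest NPC library for 9 of the 10 members.

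*Drosha*, the nuclear RNase III that releases the hairpin, lies on the plus strand of chromosome 15 (chr15:12824839-12935474, GRCm39). Its level was 252, 305, 169 and 287 TMM-normalized CPM in the ESC libraries (B/J replicates 1 and 2, then J/B replicates 1 and 2) and 111, 131, 135 and 118 in the NPC libraries in the same order. The NPC libraries lay close together, and the lowest ESC library, J/B replicate 1, still stood above them all. *Drosha* fell by 1.03 on the log2 scale (standard error 0.19, adjusted p = 0.00183 by edgeR), or by 1.20 relative to the median gene, the largest fall of any member with TMM factors. Scaled to the housekeeping genes its value was -0.41 (adjusted p = 0.153).

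*Dgcr8*, the hairpin-binding subunit of the Microprocessor (chr16:18069575-18107140, minus strand), was at 140, 156, 140 and 233 TMM-normalized CPM in ESCs and at 116, 92.3, 85.3 and 89.7 in NPCs. ESC J/B replicate 2 stood above the other ESC libraries, and *Dgcr8* was the only member for which NPC B/J replicate 1 was the highest NPC library. The log2 fold change was -0.80 (standard error 0.18, adjusted p = 0.00505 by edgeR), 0.97 below the median gene. On library totals it was -0.33 (adjusted p = 0.160). In the annotation, 3062 bases of *Dgcr8* exons overlap exons of *Trmt2a* on the opposite strand. None of the sources used here says whether the counting used the strand, so reads from that stretch may have been left out as ambiguous, a class that held 0.355% to 0.554% of the reads of a library.

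*Dicer1*, the cytoplasmic RNase III (chr12:104654001-104718211, minus strand), was at 224, 261, 218 and 252 TMM-normalized CPM in ESCs and at 122, 163, 165 and 161 in NPCs. Both stages were tight apart from NPC B/J replicate 1, which lay below the other NPC libraries. The log2 fold change was -0.65 (standard error 0.14, adjusted p = 0.00395 by edgeR), 0.82 below the median gene, and leaving out NPC B/J replicate 1 gave -0.56 (adjusted p = 0.0141). On library totals the change was -0.17 (adjusted p = 0.342) and with the housekeeping genes -0.02 (adjusted p = 0.946). All 3 processing genes thus fell with TMM factors (beside 31.9% of all genes), 1 of 3 on library totals (beside 20.9%) and 0 of 3 with the housekeeping genes (beside 17.2%).

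*Ago2* lies on the minus strand of chromosome 15 (chr15:72967693-73056784) and spans 89.1 kb. Its TMM-normalized level was 233, 182, 272 and 193 CPM in the ESC libraries and 120, 166, 135 and 136 CPM in the NPC libraries. The highest ESC library was J/B replicate 1, and on this scale the gap between the stages lay between ESC B/J replicate 2 and NPC B/J replicate 2. On library totals the stages overlapped, with ESC B/J replicate 2 at 156 CPM and NPC B/J replicate 2 at 196 CPM. The log2 fold change there was -0.18 (adjusted p = 0.376 by edgeR). *Ago2* fell by 0.66 on the log2 scale with TMM factors (95% interval -1.06 to -0.26, adjusted p = 0.0101 by edgeR), to 0.633 of its ESC level and 0.83 below the median gene. The call held without each library in turn, with log2 fold changes of -0.79 to -0.53, and the adjusted p over all alternatives ranged from 0.00144 to 0.967. The largest of these came with scaling to *Gapdh*, *Gusb* and *Tbp*, where the change was -0.01. With TMM factors *Gapdh* itself fell by 1.43 and *Tbp* by 0.69 on the log2 scale, while *Gusb* was at 0.23 and did not pass the test (adjusted p = 0.427).

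*Chrac1*, a histone-fold protein gene on the plus strand, meets the end of *Ago2*, and 219 bases of their exons overlap. Among the neighbours of *Ago2* in the domain, *Chrac1* fell, *Peg13* rose and *Trappc9* did not pass the test, with log2 fold changes of -1.11, 2.22 and 0.10 and adjusted p-values from edgeR of 6.63e-04, 0.00167 and 0.601. *Kcnk9*, a potassium channel gene, had 0 to 2 counts in each ESC library and 24 to 357 in the NPC libraries. The call of *Trappc9* depended on the scaling, since it passed as higher on library totals (0.58, adjusted p = 0.0121) and with the housekeeping genes (0.75, adjusted p = 0.00873).

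The genes whose log2 levels followed *Ago2* most closely over the 8 libraries were *Zap70* (Pearson r = 0.990), *Cep57l1* (0.990), *Slc15a1* (0.985), *Caprin2* (0.982) and *Spg11* (0.981), the top 5 of the other genes tested. Like *Ago2*, all 5 were highest in ESC J/B replicate 1 and lowest in NPC B/J replicate 1 on library totals. *Zap70* and *Slc15a1* were low throughout, at most 3.86 and 10.2 CPM of the library total, and in NPCs at most 0.301 and 0.715 CPM. Among the members, *Dicer1* was closest to *Ago2* (r = 0.763) and *Ago4* ran opposite to it (r = -0.813). These are descriptions over libraries that share the 2 stages and the TMM factors.

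*Ago1*, *Ago3* and *Ago4* sit side by side on the minus strand of chromosome 4, in the order *Ago4* (chr4:126383334-126427406), *Ago1* (chr4:126328805-126362498) and *Ago3* (chr4:126225496-126323362). The gap from *Ago4* to *Ago1* is 20.8 kb, that from *Ago1* to *Ago3* is 5.4 kb, and the whole stretch is 201.9 kb long. The neighbours did not move as a block. *Ago4*, an Argonaute without slicing activity, had 10, 22, 19 and 20 counts in the ESC libraries and 256, 368, 361 and 479 in the NPC libraries. Its TMM-normalized level was 0.434 to 1.01 CPM in ESCs and 7.29 to 15.5 CPM in NPCs, with no overlap between the stages on any scale used. It rose 13.5-fold (log2 fold change 3.75, standard error 0.39, adjusted p = 1.15e-04 by edgeR), and its value without any 1 library was 3.53 to 4.09.

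*Ago1* was among the most abundant members at both stages. Its level was 209, 179, 212 and 202 TMM-normalized CPM in ESCs and 91.1, 203, 209 and 237 in NPCs. Apart from NPC B/J replicate 1, the NPC libraries lay at the level of ESCs or above it, and the stages overlapped. The log2 fold change of -0.15 (95% interval -0.70 to 0.40, adjusted p = 0.596 by edgeR) turned to 0.08 without NPC B/J replicate 1, to 0.34 on library totals and to 0.51 with the housekeeping genes. Without NPC B/J replicate 2, by contrast, *Ago1* was called lower (-0.50, adjusted p = 0.0217). *Ago3* was low in every library, at 10.3 to 14.6 CPM in ESCs and 6.24 to 14.9 CPM in NPCs. Its log2 fold change was -0.16 (95% interval -0.78 to 0.46, adjusted p = 0.615), with a positive sign on library totals (0.32), with the housekeeping genes (0.49) and without NPC B/J replicate 1 (0.02).

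**Figure D2:**
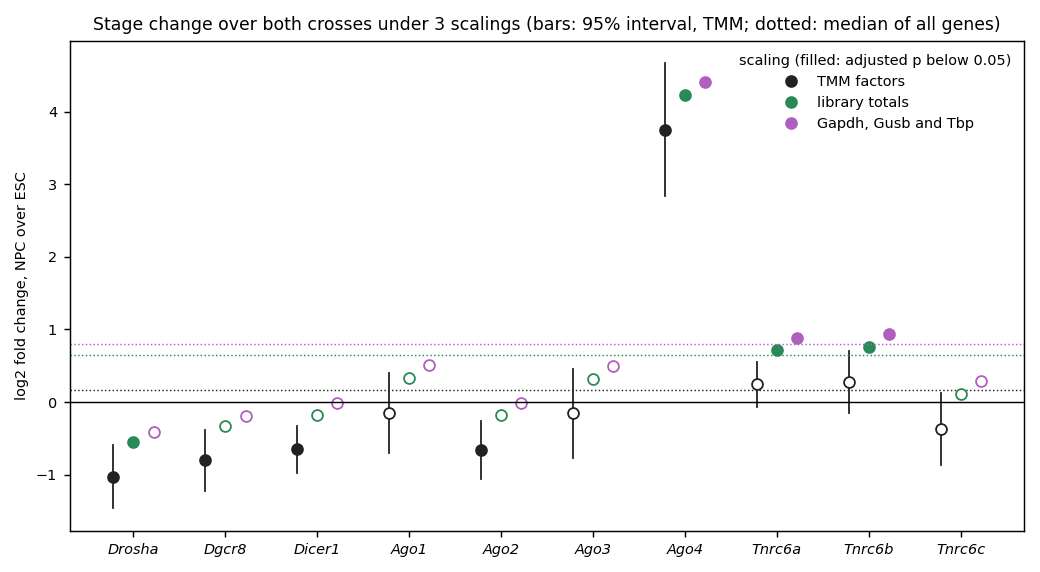
Log2 fold change from ESCs to NPCs over both crosses (vertical axis) for each member (horizontal axis) under 3 scalings shown by colour, with filled points for an adjusted p below 0.05, the 95% interval for TMM factors and dotted lines at the median of all genes tested. *Ago4* stands apart under each scaling. Each member keeps its distance from the dotted line of the same colour, which the arithmetic of scaling brings about.

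The TNRC6 genes encode the scaffolds that link Argonaute to the deadenylases. *Tnrc6a* (chr7:122723094-122794519) was at 129, 137, 141 and 174 TMM-normalized CPM in ESCs and at 154, 180, 160 and 193 in NPCs. The NPC libraries were mostly the higher ones but overlapped with ESC J/B replicate 2. *Tnrc6b* (chr15:80595019-80825286) was at 50.6 to 72.2 CPM in ESCs and 53.2 to 89.5 CPM in NPCs, and *Tnrc6c* (chr11:117544908-117654265) at 123 to 151 and 65.2 to 143 CPM. None of the 3 passed the test with TMM factors, with log2 fold changes of 0.24 (95% interval -0.07 to 0.56) for *Tnrc6a*, 0.28 (-0.15 to 0.71) for *Tnrc6b* and -0.37 (-0.87 to 0.12) for *Tnrc6c*. On library totals *Tnrc6a* and *Tnrc6b* were higher in every NPC library than in any ESC library and passed the test (0.72, adjusted p = 0.00334, and 0.76, adjusted p = 0.00855), while *Tnrc6c* changed sign to 0.11. Relative to the median gene under TMM factors, *Tnrc6a* and *Tnrc6b* differed by 0.07 and 0.11, close to the bulk of genes. Without NPC B/J replicate 2, *Tnrc6c* was called lower (-0.62, adjusted p = 0.0253). All 3 passed with TMM factors when a replicate term was fitted within each stage, an alternative chosen with the data in view (*Tnrc6a* 0.24, adjusted p = 0.0383, *Tnrc6b* 0.26, adjusted p = 0.0476, and *Tnrc6c* -0.41, adjusted p = 0.00678).

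Ratios of counts within a library do not depend on any scaling. Of 7 ratios, chosen after the levels were seen, 3 did not overlap between the stages and 4 did. They pair genes already seen to differ in their changes, and no share of other gene pairs was computed, so nothing is read from that count. The summed count of the TNRC6 genes over that of *Drosha*, *Dgcr8* and *Dicer1* was 0.550, 0.430, 0.664 and 0.478 in the ESC libraries and 0.779, 0.988, 0.848 and 1.16 in the NPC libraries. Every NPC library thus held more TNRC6 reads per processing read than any ESC library (0.943 ± 0.166 against 0.530 ± 0.102, SD, n = 4 each). The ratio of *Tnrc6a* to *Dicer1* went likewise from 0.609 ± 0.0735 to 1.13 ± 0.125, and that of *Ago2* to *Tnrc6a* went from 1.55 ± 0.388 down to 0.814 ± 0.0942, both with no overlap. The ratio of *Ago2* to *Ago1* did overlap, at 1.12, 1.02, 1.29 and 0.956 in ESCs and 1.32, 0.818, 0.647 and 0.573 in NPCs, where NPC B/J replicate 1 was the highest of all libraries and the other 3 NPC libraries were the lowest. The other overlapping ratios were the Argonaute genes over the processing genes (0.682 ± 0.200 in ESCs and 0.925 ± 0.197 in NPCs), *Dicer1* over *Drosha* (0.978 ± 0.207 and 1.23 ± 0.108) and *Drosha* over *Dgcr8* (1.55 ± 0.382 and 1.32 ± 0.267).

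**Figure D3:**
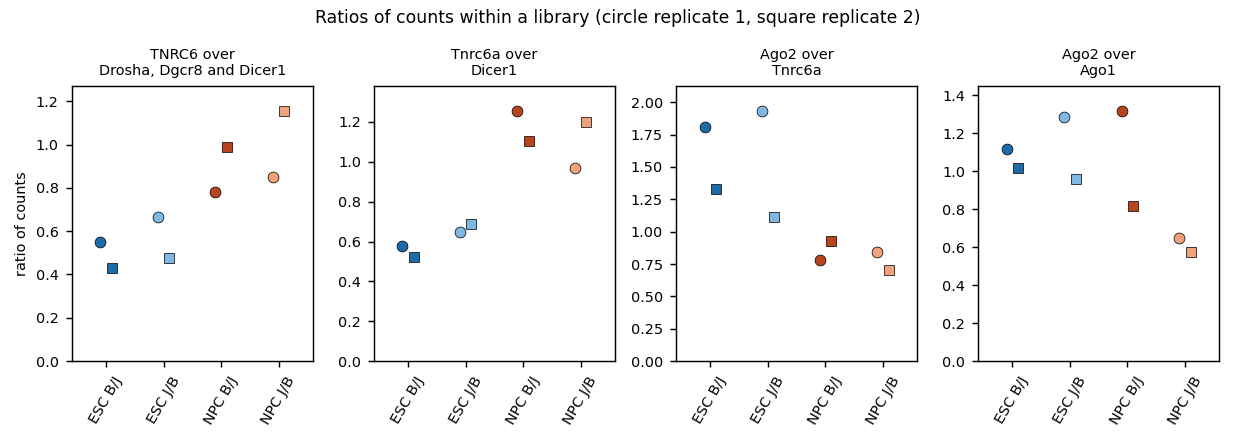
Ratios of counts within each library (vertical axes, from 0) in the 4 groups (horizontal axes), with a circle for replicate 1 and a square for replicate 2. The first 3 ratios do not overlap between ESCs and NPCs, and the ratio of *Ago2* to *Ago1* does, through NPC B/J replicate 1.

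To compare members with each other, levels were divided by the kilobases of annotated exon of each gene. These lengths came from GENCODE, while the reads were aligned with a refGene-based annotation, so lengths and counts may not match. In ESCs the order was *Drosha* (27.2 ± 6.46 CPM per kb, SD, n = 4), *Ago1* (24.3 ± 1.79), *Ago2* (15.6 ± 2.90), *Dgcr8* (14.9 ± 3.97), *Dicer1* (14.2 ± 1.24), *Tnrc6a* (9.88 ± 1.34), *Tnrc6c* (6.56 ± 0.566), *Tnrc6b* (2.47 ± 0.364), *Ago3* (0.624 ± 0.101) and *Ago4* (0.110 ± 0.0353). *Drosha* and *Ago1* overlapped in range, and so did *Ago2*, *Dgcr8* and *Dicer1*, each with the next. In NPCs *Ago1* led (22.4 ± 7.80), followed by *Drosha* (13.3 ± 1.23), *Tnrc6a* (11.7 ± 1.22), *Ago2* (9.85 ± 1.38), *Dicer1* (9.11 ± 1.21), *Dgcr8* (8.55 ± 1.23), *Tnrc6c* (5.11 ± 1.59), *Tnrc6b* (2.98 ± 0.669), *Ago4* (1.49 ± 0.481) and *Ago3* (0.568 ± 0.188). *Ago4* overtook *Ago3* with no overlap in NPCs, and from *Ago1* to *Dgcr8* each NPC range overlapped with the next. The middle of the order depended on the length used. Per kb of the longest transcript, *Dgcr8* (24.3 ± 6.45), *Dicer1* (24.2 ± 2.12) and *Tnrc6a* (16.9 ± 2.29) came before *Ago2* (16.0 ± 2.97) in ESCs, and in NPCs *Dicer1* (15.5 ± 2.06) and *Dgcr8* (13.9 ± 1.99) before *Ago2* (10.1 ± 1.42).

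Within the Argonaute family, *Ago1* and *Ago2* made up nearly all counts per kb at both stages, and the share of *Ago4* increased. *Ago1* took 60.1% ± 2.84 of the family in ESCs and 63.9% ± 7.73 in NPCs (SD, n = 4 each). *Ago2* took 38.1% ± 3.13 and 30.1% ± 7.65, with a range of 35.0% to 42.2% in ESCs and 23.3% to 40.7% in NPCs, so the stages overlapped. *Ago4* went from 0.275% ± 0.0955 to 4.36% ± 0.740, with every NPC library (3.43% to 5.11%) above every ESC library (0.139% to 0.362%), and *Ago3* stayed between 1.28% and 1.97% in all 8 libraries. The rise of *Ago4* was from little: as a raw share of Argonaute counts, ESC B/J replicate 1 held 0.0955% (10 of 10466 counts, 95% exact Clopper-Pearson interval 0.0458% to 0.176%, counting error only). In the TNRC6 family, *Tnrc6a* took 52.1% ± 4.14 in ESCs and 59.6% ± 4.77 in NPCs, and *Tnrc6b* 13.0% ± 1.47 and 15.0% ± 1.09. *Tnrc6c* took 34.8% ± 3.71 and 25.4% ± 3.89, with all NPC libraries below all ESC libraries. The direction of each of these shares was the same with the longest transcript as length and with raw counts. Shares were described without a test.

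**Figure D4:**
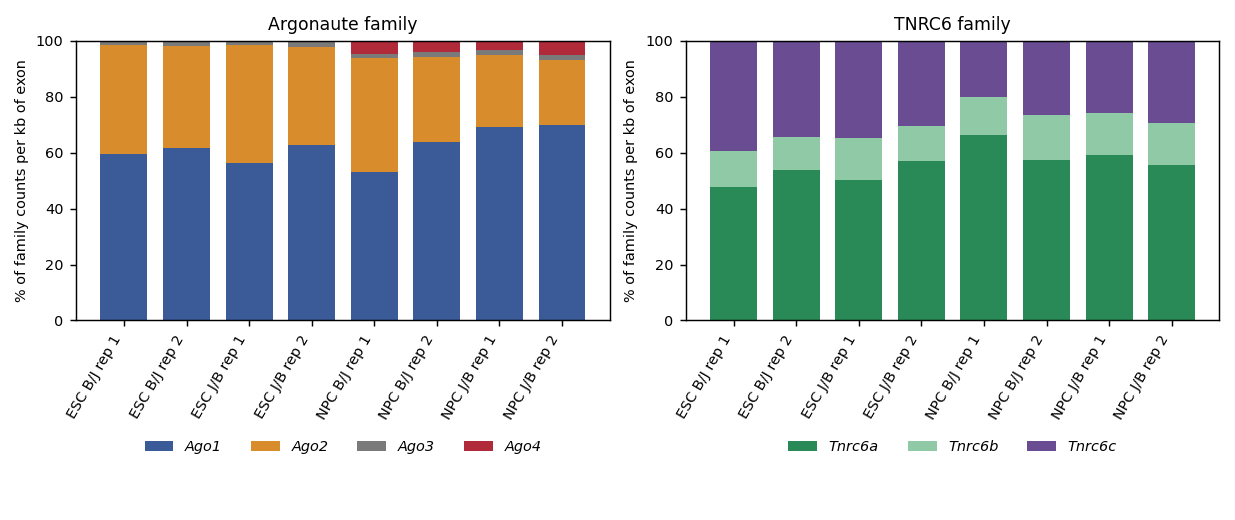
Share of each gene in the counts per kb of exon of its family, in percent (vertical axis), for each of the 8 libraries (horizontal axis), Argonaute on the left and TNRC6 on the right. The *Ago4* segment is 3.43% to 5.11% in NPC libraries and at most 0.362% in ESC libraries, and the *Tnrc6c* segment is smaller in every NPC library.

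Within B/J, 3 of the 10 members passed the test, *Ago4* higher (beside 30.1% of all genes) and *Drosha* and *Dicer1* lower (beside 25.6%). The log2 fold changes were 3.78 (adjusted p = 0.00120), -1.20 (0.00696) and -0.77 (0.0128) by edgeR, and those of *Ago2* and *Dgcr8* were -0.54 (0.0960) and -0.51 (0.123). With a replicate term within each stage both of these passed within B/J (adjusted p = 0.0174 and 0.0410). *Dicer1* lost its call without ESC B/J replicate 2 (-0.66, adjusted p = 0.0769) or NPC B/J replicate 1 (-0.57, adjusted p = 0.0830), and the fit without NPC B/J replicate 2 called 5 members while the number of all genes called went from 9143 to 6889. Within J/B, 4 members passed, *Ago4* higher (3.72, adjusted p = 0.00135, beside 29.1% of all genes) and *Dgcr8* (-1.09, 0.00939), *Drosha* (-0.85, 0.0281) and *Ago2* (-0.78, 0.0286) lower (beside 25.3%). *Dicer1* was at -0.53 (adjusted p = 0.0524), and DESeq2 called it lower (-0.51, adjusted p = 0.0419). Leaving out a library leaves a group with a single sample, which is then assumed to vary like the other groups. *Ago2* lost its call without ESC J/B replicate 1 (-0.52, adjusted p = 0.160), NPC J/B replicate 1 (-0.80, 0.0949) or NPC J/B replicate 2 (-0.79, 0.108). *Drosha* lost it without ESC J/B replicate 2 (-0.40, 0.198), NPC J/B replicate 1 (-0.98, 0.0650) or NPC J/B replicate 2 (-0.76, 0.135), and in a fit of only the 4 J/B libraries (-0.86, 0.0573), and *Dgcr8* kept it but moved to -0.66 without ESC J/B replicate 2. On library totals and with the housekeeping genes 0 members were called lower in either cross, with adjusted p-values for *Drosha* of 0.0648 and 0.119 within B/J and 0.296 and 0.743 within J/B.

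The crosses were then compared. The interaction of stage and cross was called for 0 of the 10 members and for 0% of all genes by edgeR, with 0 members and 573 genes at an unadjusted p below 0.05, and with 11 genes but 0 members called by DESeq2. Interaction values ran from -0.58 (*Dgcr8*) to 0.50 (*Ago1*), and that of *Ago2* was -0.25 (95% interval -1.05 to 0.56), an interval that holds values as large as the stage change itself. Between J/B and B/J ESCs, edgeR called 0 members and 0% of genes (346 genes and 0 members at an unadjusted p below 0.05, 10 genes and 0 members by DESeq2). *Ago2* differed there by 0.16 (95% interval -0.40 to 0.73). Between J/B and B/J NPCs, 0 members and 0.0061% of genes were called (1050 genes and 0 members at an unadjusted p below 0.05, 70 genes and 0 members by DESeq2), with *Ago2* at -0.08 (95% interval -0.65 to 0.49) and the largest value 0.60 for *Ago1*. With 2 libraries per group these intervals are wide, and they do not show that the crosses were alike.

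Other genes of the pathway were taken from lists, whose counts stand beside the 37.5% of all genes that rose and the 31.9% that fell with TMM factors (48.9% and 20.9% on library totals, 51.6% and 17.2% with the housekeeping genes). Of 17 partners of nuclear processing and export, 14 fell and 1 rose with TMM factors (median log2 fold change -0.72). *Xpo5*, the exporter of hairpins, fell by 1.39, its partner *Ran* by 1.64 and *Srrt*, which links the cap-binding complex to primary transcripts, by 1.74, with edgeR adjusted p-values of at most 1.48e-04. *Xpo5* was at 242 to 318 TMM-normalized CPM in ESCs and at 90.0 to 129 in NPCs, with no overlap. On library totals 7 of the 17 fell and 3 rose, and with the housekeeping genes 5 fell and 3 rose.

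Of 12 partners of Dicer1 and chaperones that load Argonaute, 10 fell and 1 rose (median -1.34). The partners of Dicer1 went opposite ways. *Tarbp2* was at 97.0 to 106 TMM-normalized CPM in ESCs and 38.4 to 41.0 in NPCs, and *Prkra* at 15.6 to 20.1 and 31.4 to 43.4, with log2 fold changes of -1.37 and 1.08 (adjusted p = 4.75e-05 and 5.96e-04 by edgeR). The chaperones *Hsp90aa1*, *Hspa8* and *Fkbp5* fell by 2.59, 2.06 and 2.40. On library totals and with the housekeeping genes 8 of the 12 fell and 2 rose.

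Of the 10 tested regulators of let-7 and of tailing, 4 rose and 2 fell, near the shares over all genes. *Lin28a*, which blocks the maturation of let-7, was at 618 to 979 TMM-normalized CPM in ESCs and at 64.7, 93.3, 319 and 61.6 in NPCs, and *Trim71*, itself a let-7 target, fell with it (-2.79 and -2.63, adjusted p = 0.00133 and 1.80e-04 by edgeR). NPC J/B replicate 1 held the most *Lin28a* of the NPC libraries, and leaving it out gave -3.62. *Lin28b*, of the same list, overlapped between the stages, at 32.3 to 90.1 TMM-normalized CPM in ESCs and 17.9 to 66.8 in NPCs. *Tut4*, a uridylyltransferase that acts with Lin28a, rose by 1.11, *Trim32* by 1.03 and *Zswim8*, the adaptor of the ligase that degrades Argonaute during target-directed microRNA decay, by 1.99 (adjusted p = 2.17e-05). *Zswim8* was at 43.1 to 56.1 TMM-normalized CPM in ESCs and 180 to 230 in NPCs. On library totals and with the housekeeping genes 6 of the 10 rose and 2 fell.

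Of 33 genes of deadenylation, decapping and decay, the machinery that TNRC6 proteins recruit, 23 fell and 3 rose (median -0.69). *Mov10*, an RNA helicase bound to Argonaute, fell by 1.88, *Ajuba* by 1.69 and *Cnot11* by 1.54, while the deadenylases *Cnot6* and *Cnot6l* rose by 0.78 and 1.15 and *Limd1*, a LIM protein of processing bodies, by 1.56 (edgeR adjusted p at most 0.00304). This split depended on the scaling, with 12 lower and 8 higher on library totals and 9 lower and 8 higher with the housekeeping genes. Of 8 genes of the PIWI clade and its pathway, the germline counterpart of the Argonautes, 4 fell and 0 rose under each of the 3 scalings. *Pld6*, *Ddx4* and *Piwil2* fell by 3.01, 2.96 and 2.72, all from low levels, with *Piwil2* at 5.37 to 16.0 TMM-normalized CPM in ESCs and 0.807 to 2.23 in NPCs.

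**Figure D5:**
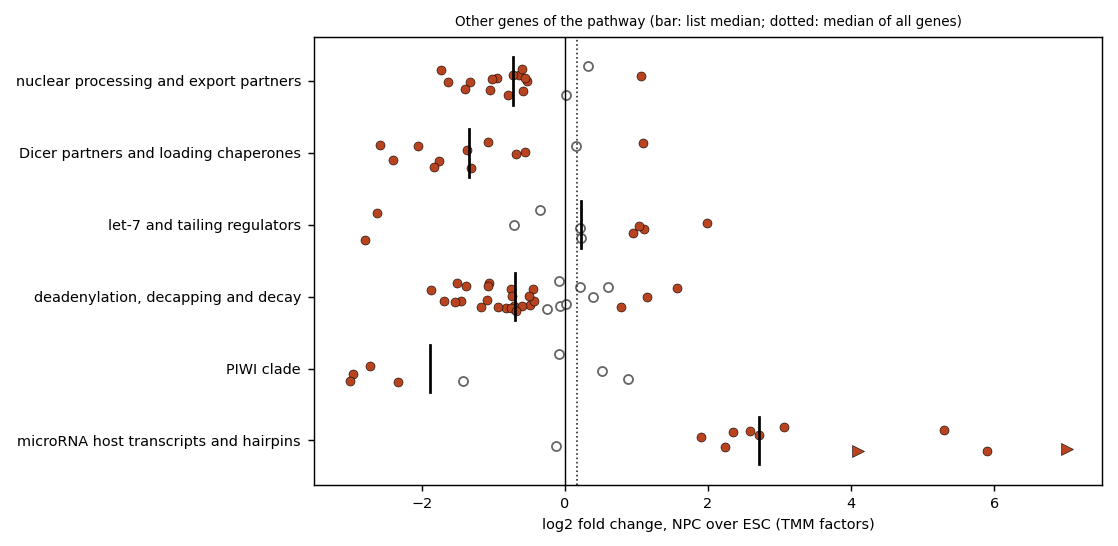
Log2 fold change from ESCs to NPCs with TMM factors (horizontal axis) for each tested gene of 6 lists (vertical axis), filled where the adjusted p is below 0.05, with a bar at the list median and a dotted line at the median of all genes. Triangles are lower bounds for *Mir124-2hg* and *Mir99ahg*, which had 0 counts in ESCs. Most partner, chaperone and decay genes lie left of the dotted line, and the microRNA rows that lie far right had few or no reads in ESCs.

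Rows for microRNA genes were sparse. Of 51 host transcripts and hairpins listed, 47 were in the files, 17 had 0 counts in all libraries and 11 passed the filter on low counts. Rows at or near 0 in ESCs could pass it only through the NPC libraries, so no count of rises is given for these 11. *Mir100hg*, the host of miR-100 and miR-125b-1, was at 0.641 to 1.26 TMM-normalized CPM in ESCs and 19.5 to 110 in NPCs, and rose by 5.90 on the log2 scale (standard error 0.61, adjusted p = 1.15e-04 by edgeR). *Mir22hg* rose by 3.05 (adjusted p = 9.02e-05) and *Mir9-3hg* by 2.59 (adjusted p = 0.00372), the latter with 18 to 46 counts in ESCs and 115 to 590 in NPCs. *Mir124-2hg* had 0 counts in all ESC libraries and 595 counts over the NPC libraries, and was at least 129-fold higher, taking 3 counts over the 4 ESC libraries as the floor. *Mir17hg*, the host of a cluster linked to proliferation, did not pass the test (-0.13, 95% interval -0.95 to 0.69). The hairpin rows *Mirlet7d*, *Mirlet7f-1* and *Mirlet7i* had 0 to 15 counts per ESC library and 4 to 22 per NPC library, in poly(A) libraries that do not capture mature let-7. *Mir9-3hg* and *Mir124a-1hg*, like the neuron markers, were lowest among NPCs in NPC B/J replicate 1, and the part of the cell types in these values was not tested.

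The mature sequences encoded by these hosts and hairpin rows are shown because an Argonaute recognises its targets through them, although no mature microRNA was measured. They are from RefSeq (table build GRCm38.p6), written 5′ to 3′ with the seed, bases 2 to 8, in capitals, and the hairpins are placed on GRCm39.
miR-100-5p: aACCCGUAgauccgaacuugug
miR-125b-5p: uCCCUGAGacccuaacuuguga
miR-22-3p: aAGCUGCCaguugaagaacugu
miR-9-5p: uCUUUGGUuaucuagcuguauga
let-7d-5p: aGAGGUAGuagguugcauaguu
let-7f-5p: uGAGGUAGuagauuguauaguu
let-7i-5p: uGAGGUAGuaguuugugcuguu
The 3 let-7 sequences share the seed GAGGUAG, and the other 4 each have a seed of their own. The hairpins of miR-100 (chr9:41442721-41442800, plus strand) and miR-125b-1 (chr9:41493222-41493298, plus strand) lie inside *Mir100hg*, that of miR-22 (chr11:75354542-75354636, plus strand) inside *Mir22hg* and that of miR-9-3 (chr7:79155012-79155101, plus strand) inside *Mir9-3hg*. The hairpins of let-7d (chr13:48689488-48689590) and let-7f-1 (chr13:48691305-48691393) are neighbours on the minus strand, and that of let-7i lies at chr10:122821545-122821629, minus strand.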

How the data were processed

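Raw counts per gene, deposited by the authors without normalization and summed over both alleles, were used for 8 libraries of poly(A) RNA. Per the study's methods and the submitters' processing notes, paired-end reads were aligned with TopHat2 to mm39 masked at JF1 SNPs, with a refGene-based annotation, and filtered for proper pairs and mapping quality. The notes also name HTSeq, DESeq2 and edgeR. Library kits of 2 makers (1 of them named as stranded) and 2 sequencers were used, and no source used here says which library had which. The 5 closing entries were left out, of which reads without a gene were 5.76% to 10.9% of a library.

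Counts were tested in R 4.3.3 with edgeR 4.0.16 (TMM, filterByExpr with a minimum count of 10, robust quasi-likelihood fit of 4 group means) and Benjamini-Hochberg adjustment over 16399 genes at 0.05. Alternatives were DESeq2 1.42.0, RLE factors, a housekeeping scaling (*Gapdh*, *Gusb*, *Tbp*), library totals, limma 3.58.1 (voom), other filters, no robust estimation, replicate blocks, fits of 4 libraries and each library left out. Positions and exon lengths came from GENCODE vM39 (GRCm39). The members and lists were chosen with earlier results of these data known. Besides the members, text names the 3 largest rises and falls per list, other than the marker lists, at a mean of at least 1 CPM. It also names the neighbours of *Ago2*, the 5 genes most correlated with it, and others chosen after their values were seen (*Tarbp2*, *Lin28b*, *Mir9-3hg*, *Mir124a-1hg*, *Mir99ahg*, *Mir17hg* and the let-7 hairpins). Of the marker genes, only *Tpbpa*, *Pappa2*, *Ctsj*, *Stmn2*, *Sox7* and *Dab2* are named. The tests were tested on simulated data. Allelic expression was not analysed here. A gene that the naming rule selects is not reported here.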

Additional observations from a re-analysis of the deposited data

Results flagged for a closer look

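In 34 sets of 4 libraries, each the level or family share of a member at a single stage, 2 had a library far from the other 3, where chance gives about 1 in 20. The *Dicer1* level in NPCs was flagged because NPC B/J replicate 1 (122 TMM-normalized CPM) lay below the others (161 to 165), with a gap of 0.907 of the range, past Dixon's 95% critical value for 4 values. The share of *Ago3* in Argonaute counts per kb in NPCs was flagged because 1 library (1.91%) stood above the others (from 1.53%), with a gap of 0.867 of the range, past the same value. On library totals the *Ago3* level in ESCs passed it too (0.880). The interaction of stage and cross was called for 0 members (edgeR, 0 at an unadjusted p below 0.05), although *Ago1* had values of opposite sign, -0.40 within B/J and 0.10 within J/B, with neither called.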

How the results depend on the processing

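Over both crosses, the scaling, single libraries and a replicate block fitted per stage moved the calls, and DESeq2, limma-voom, RLE factors and the filters on low counts left the counts of members called as they were. Within J/B, DESeq2 added *Dicer1* and a fit of only the 4 libraries lost *Drosha*. Over both crosses the members called went from 5 to 3 with the housekeeping genes, those called higher from 1 to 3 on library totals and to 3 with the housekeeping genes, and those called lower from 4 to 1 and 0. Within B/J, library totals gave 3 higher and 0 lower, and the housekeeping genes 2 higher and 0 lower (all genes called 55.4% and 52.9%). Within J/B, library totals gave 2 called, 2 higher and 0 lower, and the housekeeping genes 3 higher and 0 lower (all genes called 54.4% and 55.2%). Without each library in turn, over both crosses 5 to 7 members were called (1 to 1 higher, 4 to 6 lower), and within B/J and within J/B 2 to 5 (1 to 1 higher, 1 to 4 lower), while the number of all genes called ran from 10225 to 11249 over both crosses, 6157 to 9473 within B/J and 5700 to 8475 within J/B. Signs turned for *Ago1* (library totals 0.34, housekeeping 0.51, single libraries left out -0.50 to 0.081), *Ago3* (0.32, 0.49 and -0.41 to 0.020), *Tnrc6c* (library totals 0.11, housekeeping 0.29), *Cep57l1* (housekeeping 0.015) and *Dicer1* within J/B (housekeeping 0.21). Uncalled cross values of *Ago2* also turned: without each library in turn, the interaction ran from -0.48 to 0.024 (ESC J/B replicate 1 left out), the ESC difference from -0.11 (ESC J/B replicate 1 left out) to 0.37 and the NPC difference from -0.32 to 0.16 (NPC B/J replicate 2 left out), and the NPC difference was 0.13 with the housekeeping genes. The cause was not tested. Shares as raw counts were, from ESCs to NPCs, 46.5% to 52.1% (*Ago1*), 50.5% to 41.6% (*Ago2*), 2.76% to 3.07% (*Ago3*), 0.190% to 3.15% (*Ago4*), 42.4% to 49.4% (*Tnrc6a*), 18.0% to 21.1% (*Tnrc6b*) and 39.6% to 29.5% (*Tnrc6c*), and with the longest transcript *Tnrc6b* was 10.9% to 12.6%. Without each library they ranged, in ESCs and NPCs, over 59.2% to 61.3% and 61.9% to 67.5% (*Ago1*), 36.8% to 39.2% and 26.6% to 32.4% (*Ago2*), 1.41% to 1.64% and 1.55% to 1.68% (*Ago3*), 0.246% to 0.320% and 4.11% to 4.67% (*Ago4*), 50.5% to 53.7% and 57.3% to 61.0% (*Tnrc6a*), 12.4% to 13.5% and 14.6% to 15.5% (*Tnrc6b*), and 33.2% to 36.2% and 24.1% to 27.2% (*Tnrc6c*).

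Same-numbered replicates deviated together within a stage (correlation 0.443 in ESCs, 0.622 in NPCs) but hardly across stages (0.0426 to 0.0941), so the numbers were not taken to pair the libraries. The main fit treats the libraries of a stage as independent. Its p-values for the stage change leave out this shared deviation and may be too small. The values given for the crosses within a stage also come from the fit without a block. With the replicate block, 5 members were called over both crosses, 12010 genes against 11378 without it, and *Dicer1* within J/B was called (-0.52, adjusted p = 0.0275). A replicate block fitted per stage, added once the data had been seen, called 8 members over both crosses, 3 of them higher, beside 78.3% of all genes, and within B/J 6 members, 5 of them lower, beside 69.0% of all genes (69.4% and 55.8% without a block). *Ago4* and the microRNA rows had few reads in ESCs, which limits their fold changes.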
